A study of Homo sapiens with 10 samples.

Results

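The genes described here are 10 secreted factors and receptors that set the angiogenic balance of the retina, namely VEGFA, VEGFB, VEGFC, PGF, KDR, ANGPT1, ANGPT2, ANGPTL4, FGF2 and SERPINF1. They were picked by gene symbol, as factors with a known part in diabetic retinopathy, and each had a single row among the 22626 rows of the count table. RNA of ARPE-19, an established human retinal pigment epithelium (RPE) cell line, was sequenced after 48 h in high-glucose medium with 37.5 mM glucose (HG group, n = 5) or in medium with 5.5 mM glucose and 32 mM mannitol, a sugar alcohol that adds osmotic load (control group, n = 5). All libraries came from the same line grown alone in serum-containing medium, with no genetic change, and vessels, neurons and glia of the retina were absent from the model. The labels letter the HG samples while the table numbers them, so HG libraries are called by their column (HG_1 to HG_5) and control libraries by replicate number. The labels do not say that the libraries of a group came from separate cultures, so the p-values below measure the spread between these samples, which may be technical.

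New vessels form when signals that drive endothelial growth outweigh those that restrain it. VEGF-A, the main driver of vessel leakage and growth in diabetic retinopathy, acts mostly through the receptor VEGFR2, the product of KDR, while VEGF-B and placental growth factor bind VEGFR1, and VEGF-C acts through VEGFR3 and VEGFR2. The RPE secretes VEGF-A towards the choroid and pigment epithelium-derived factor (PEDF), an inhibitor of angiogenesis encoded by SERPINF1, towards the retina, and the ratio of both is a common measure of angiogenic balance.

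Libraries held 33039260 to 45864176 counts in the control group and 32448991 to 44400714 in the HG group. HG_1 and control replicate 2 stood apart from the other 8 libraries, because their levels rose with the GC content of the transcript, by 0.184 and 0.166 on the log2 scale per 10 percentage points of GC, against -0.091 to -0.0041 elsewhere. TXNIP, a gene induced by glucose, rose by 3.15 on the log2 scale in the HG group (adjusted p = 5.55e-05, edgeR quasi-likelihood test). Of 16 RPE markers, RGR and TTR had no count in any library and RPE65 had 0 to 6 counts, whereas KRT8, KRT18, OTX2 and MITF averaged 50.2 CPM (reads scaled to the size of the library) or more in both groups. KRT8 and KRT18, the keratins of simple epithelia, fell by 0.62 and 0.68 on the log2 scale, and PMEL, a melanosome protein, fell by 0.72 (adjusted p = 0.00159, 0.00142 and 0.00854, edgeR). With EZR, they were the 4 called lower among 11 tested markers, none being called higher, where 7.8% of all rows were called lower. Without HG_1 and control replicate 2, as after a correction for GC content and length, 8 were lower and 1 higher, in fits that called 13.8% and 14.1% of all rows lower. BEST1, an RPE chloride channel, ranged from 24 to 18223 counts within the control group and did not pass the test (adjusted p = 0.0670).

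VEGFA rose, VEGFC and KDR fell, and the other 7 genes did not pass the test. Of the 10 genes, 7 had enough counts for the fit across all genes, and of these 1 was called higher and 2 were called lower in the HG group at an adjusted p under 0.05. Of all 14936 rows tested, 15.4% were called, 7.62% higher and 7.8% lower. Groups did not overlap for 2 of the 7, VEGFA and VEGFC, where 13.6% of all rows had groups without overlap. Without the 2 GC-tilted libraries 3 of the 7 were again called, but they were VEGFA and VEGFB, higher, and VEGFC, lower, in a fit that called 27.1% of all rows. PGF, ANGPT2 and ANGPTL4 had too few counts for the fit.

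**Figure D1:**
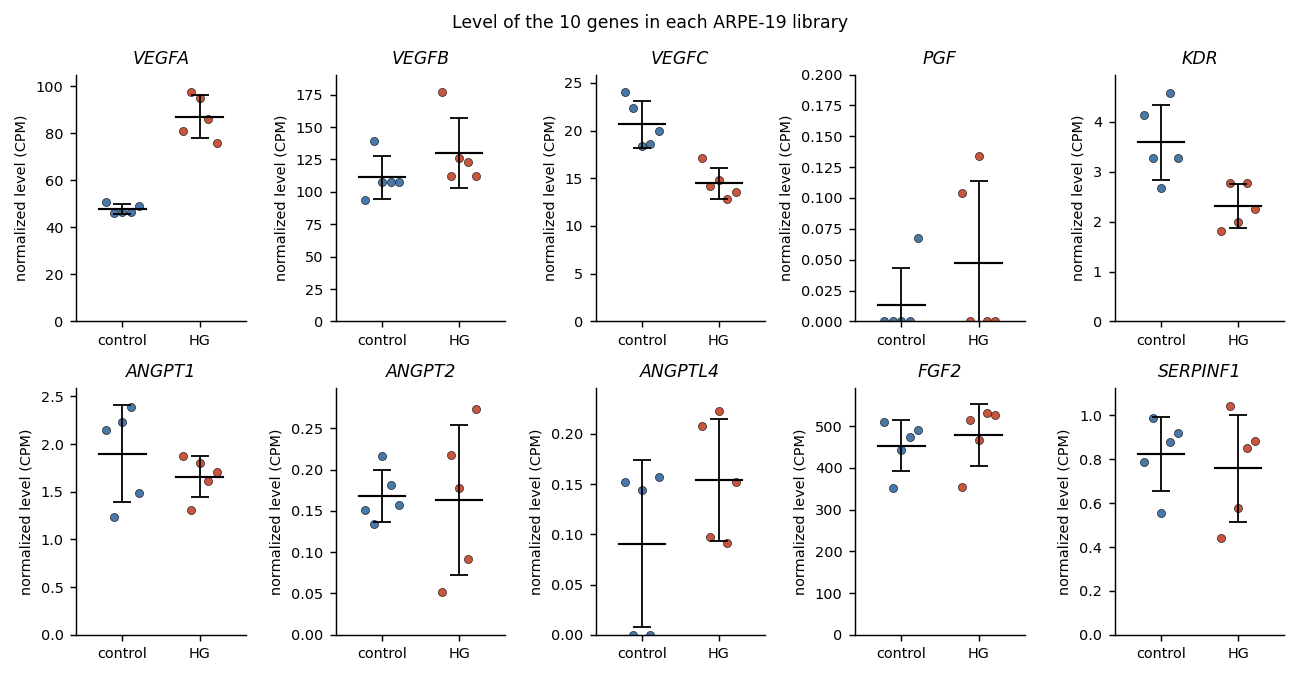
Normalized level in CPM (vertical axis, from 0) of each of the 10 genes, with 1 point per library, the mean as a horizontal line and the SD as error bars (n = 5 per group). Levels of VEGFA and VEGFC do not overlap between the control and HG groups, and PGF, ANGPT2 and ANGPTL4 lie below 0.3 CPM in every library.

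VEGFA (ENSG00000112715, GRCh38 chr6:43770184-43786487, plus strand) encodes VEGF-A, the principal endothelial mitogen and permeability factor. Its level was 50.8, 45.9, 46.7, 46.5 and 49.1 CPM in control replicates 1 to 5 and 80.8, 97.4, 95.04, 86.1 and 76.0 CPM in HG_1 to HG_5. Every HG library lay above every control library, and the lowest HG value, 76.0 CPM, stood well clear of the highest control value, 50.8 CPM. The mean level rose from 47.8 ± 2.07 to 87.1 ± 9.12 CPM (SD, n = 5 each), a 1.82-fold increase (log2 fold change 0.87, SE 0.0722, 95% interval 0.71 to 1.03, adjusted p = 6.97e-05, edgeR). By size it ranked 112 among the 1138 rows called higher. Whichever library was left out, the log2 fold change stayed between 0.82 and 0.91. In bulk RNA, more transcript per cell and more cells that express a gene cannot be told apart, here and for the genes below. A short antisense RNA, AL136131.3, shares 188 exon bases with VEGFA and was not analysed here, and the counting was not stated to use strand.

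Of the other VEGF genes, VEGFB did not pass the test and VEGFC fell. VEGFB (ENSG00000173511, chr11:64234538-64238793, plus strand), the ligand of VEGFR1 with a role in fatty acid uptake, was measured at 94.0, 139, 108, 107 and 108 CPM in the control replicates and at 177, 113, 126, 123 and 113 CPM in HG_1 to HG_5. The highest value of each group was that of its GC-tilted library, HG_1 or control replicate 2, and the groups overlapped. The mean level was 111 ± 16.7 CPM in the control group and 130 ± 27.0 CPM in the HG group, and the difference did not pass the test (log2 fold change 0.23, 95% interval -0.08 to 0.53, adjusted p = 0.321, edgeR). The longest coding transcript of VEGFB is 66.7% GC, the highest of the 10 genes. After each library was corrected for GC content and length, VEGFB lay at 103 to 114 CPM in the control group and at 124 to 137 CPM in the HG group, without overlap, at nearly the same fold change and with a smaller p (log2 fold change 0.23, adjusted p = 8.97e-04, edgeR). Without HG_1 and control replicate 2 the log2 fold change was 0.19 (adjusted p = 0.0409, edgeR), and without HG_1 alone it was 0.10 (adjusted p = 0.557, edgeR).

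VEGFC (ENSG00000150630, chr4:176683538-176792727, minus strand) encodes the main lymphangiogenic factor, which also acts on blood vessels. Its level was 24.1, 22.4, 18.4, 18.6 and 19.9 CPM in control replicates 1 to 5 and 17.1, 14.2, 14.8, 12.8 and 13.6 CPM in HG_1 to HG_5. The groups did not overlap, although HG_1, at 17.1 CPM, came close to control replicate 3, at 18.4 CPM. The mean level fell from 20.7 ± 2.49 to 14.5 ± 1.63 CPM (log2 fold change -0.51, SE 0.102, 95% interval -0.73 to -0.29, adjusted p = 0.00677, edgeR), and it ranked 391 among the 1165 rows called lower. PGF (ENSG00000119630, chr14:74941834-74955784, minus strand), which encodes placental growth factor, was at the limit of detection. It had 0, 0, 0, 0 and 3 counts in the control libraries and 4, 0, 6, 0 and 0 counts in the HG libraries, and each library without a count can still hold up to 3, or 0.0673 to 0.0912 CPM over those libraries. No fold change is given for PGF, and a difference was not detectable at this depth (exact two-sided permutation test, p = 0.444). These limits cover counting error only.

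Per length, VEGFB was the most abundant VEGF transcript in both groups. VEGFB averaged 57.6 FPKM (fragments scaled to transcript length and library size) in the control group and 67.8 FPKM in the HG group, against 13.5 and 24.6 FPKM for VEGFA and 8.43 and 5.96 FPKM for VEGFC. VEGFA made up 17.1% ± 2.42 of the summed FPKM of VEGFA, VEGFB, VEGFC and PGF in the control group and 25.3% ± 4.69 in the HG group (SD, n = 5 each). The share of VEGFA overlapped between the groups only through HG_1, at 17.9%, where VEGFB made up 76.3%, and the other 4 HG libraries, at 25.2% to 30.8%, lay above the highest control, at 20.6%. The share of VEGFC dropped from 10.7% ± 1.54 to 6.07% ± 0.298, without overlap. Over all 10 libraries the mean levels per length ran from FGF2 (65.0 FPKM) and VEGFB (62.7 FPKM), whose ranges overlapped, through VEGFA (19.03 FPKM) and VEGFC (7.19 FPKM) to SERPINF1 (0.503 FPKM), KDR (0.467 FPKM) and ANGPT1 (0.376 FPKM), which overlapped as well. ANGPTL4, ANGPT2 and PGF closed the order at 0.0573, 0.0292 and 0.0139 FPKM, again with overlapping ranges. Within groups, KDR lay above SERPINF1 in the control group (0.566 against 0.520 FPKM) and VEGFB above FGF2 in the HG group (67.8 against 67.0 FPKM).

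KDR (ENSG00000128052, chr4:55078259-55125595, minus strand), the gene of the main signalling receptor of VEGF-A, was expressed at a low level and was lower in the HG group. Control replicates 1 to 5 had 4.12, 3.27, 2.67, 4.57 and 3.28 CPM, and HG_1 to HG_5 had 1.82, 2.76, 1.98, 2.77 and 2.25 CPM. Control replicate 3 lay below HG_2 and HG_4, and the other control libraries lay above all HG libraries. The mean level fell from 3.58 ± 0.756 to 2.32 ± 0.437 CPM (log2 fold change -0.63, SE 0.188, 95% interval -1.04 to -0.21, adjusted p = 0.0452, edgeR), on 111 to 151 counts per control library and 70 to 114 per HG library. The call was lost in 9 of the 10 fits that left out 1 library, with adjusted p up to 0.110, and was kept without control replicate 3, while the log2 fold change stayed between -0.72 and -0.52. Without HG_1 and control replicate 2 it was -0.58 (adjusted p = 0.0638, edgeR), and after the GC and length correction it was -0.62 (adjusted p = 0.0154, edgeR).

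Promoter windows of VEGFC and KDR, both called lower, are shown because they are where a shared sequence feature of those genes would be read. They were taken from RefSeq (GRCh38.p14) and run from 250 bases before to 50 bases after the start site, 5′ to 3′ on the strand of the gene, VEGFC at chr4:176792873-176793172 and KDR at chr4:55125546-55125845, both on the minus strand. Capitals mark matches, on either strand, to the GC box GGGCGG or to the core of the hypoxia response element (ACGTG or GCGTG).
VEGFC: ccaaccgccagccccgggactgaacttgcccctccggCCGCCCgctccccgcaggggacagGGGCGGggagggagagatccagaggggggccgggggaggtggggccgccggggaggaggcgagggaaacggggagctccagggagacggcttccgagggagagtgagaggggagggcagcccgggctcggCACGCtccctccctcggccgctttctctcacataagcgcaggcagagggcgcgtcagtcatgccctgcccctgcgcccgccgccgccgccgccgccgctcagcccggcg
KDR: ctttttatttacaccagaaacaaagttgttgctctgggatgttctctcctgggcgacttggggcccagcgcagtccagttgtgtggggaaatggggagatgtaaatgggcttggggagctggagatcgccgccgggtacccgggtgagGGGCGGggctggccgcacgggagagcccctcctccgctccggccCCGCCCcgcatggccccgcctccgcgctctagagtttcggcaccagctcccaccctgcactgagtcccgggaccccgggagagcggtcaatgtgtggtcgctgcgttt
Both windows held 2 GC boxes, and the VEGFC window also held 1 hypoxia response element core, 59 bases before the start site, whereas the KDR window held none. The GC box was found in 45% of 35116 RefSeq windows of the same length and the core of the hypoxia response element in 48.4%. Neither window held the E-box of the carbohydrate response element CACGTG, which contains the sequence ACGTG and occurred in 7.26% of windows, or the ATF4 and C/EBP element (TGATGNAAT or TGATGNAAC), which occurred in 1.77%. These are matches of letters in a window and say nothing of binding. Windows were matched for 6 of the 10 genes, and those without one were VEGFA, SERPINF1, ANGPT1 and ANGPT2. The windows of FGF2, VEGFB, PGF and ANGPTL4, which did not pass the test, each held 2 to 9 GC boxes and 1 hypoxia response element core. Neither feature was therefore particular to the genes called lower.

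The other receptors of the VEGF ligands showed a mixed picture. NRP2, a co-receptor of VEGF-C and VEGF-A, fell from 13.9 ± 1.45 to 9.11 ± 0.831 CPM (log2 fold change -0.61, adjusted p = 0.00174, edgeR). NRP1, the co-receptor of VEGF-A, averaged 92.0 ± 11.2 CPM in the control group and 87.1 ± 8.52 CPM in the HG group (log2 fold change -0.08, adjusted p = 0.655, edgeR). FLT1, the gene of VEGFR1, had no count in any of the 10 libraries, and FLT4, the gene of VEGFR3, had 0 to 4 counts. PDGFRB, a receptor of platelet-derived growth factor, fell from 177 ± 14.7 to 103 ± 8.76 CPM (log2 fold change -0.78, adjusted p = 1.23e-04, edgeR). Among 7 genes listed for this axis, PDGFRA and PDGFRB included, 3 were tested. Of these, 2 were called lower, NRP2 and PDGFRB, and none was called higher, where 7.8% of all rows were called lower. NRP2 was thus the only VEGF co-receptor of the list that was called.

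Defining markers of endothelial cells were at or near 0. Of 12 endothelial markers, 6 had no count in any library, CDH5, TIE1 and ERG among them, and PECAM1 had 0 to 4 counts. The summed level of the 12 markers was 15.2 to 20.3 CPM in the control group and 12.2 to 19.02 CPM in the HG group, mostly EGFL7 and ROBO4. None of the 4 tested was called, where 15.4% of all rows were called. Of 7 pericyte and smooth muscle markers 4 were tested and 2 fell, where 7.8% of all rows did. These were RGS5 (log2 fold change -0.79, adjusted p = 0.00982, edgeR) and NOTCH3 (log2 fold change -1.30, adjusted p = 0.0227, edgeR), and the groups overlapped for both. NOTCH3 was low, at 0.636 and 0.258 CPM, on 12 to 38 counts per control library and 8 to 12 per HG library. The summed level of the 7 markers was 11.7 to 14.6 CPM in the control group and 8.18 to 11.5 CPM in the HG group. PDGFRB, a receptor also carried by pericytes, was listed with the VEGF axis and is not in this sum, at 177 and 103 CPM. DES and KCNJ8 were at 0. Of 6 immune markers PTPRC, the leukocyte common antigen, had 0 to 4 counts and AIF1 none. Of the 2 tested 1 was called higher, where 7.62% of all rows were. This was CD68, a lysosomal protein, which rose from 70.3 to 114 CPM (log2 fold change 0.70, adjusted p = 0.00311, edgeR). CSF1R, the receptor of macrophage colony-stimulating factor, averaged 6.57 and 4.86 CPM (log2 fold change -0.43, adjusted p = 0.0502, edgeR), and it was called lower with other scalings of the libraries and after the GC correction, but not without HG_1 and control replicate 2 (adjusted p = 0.0579, edgeR). The summed level of these 6 was 60.8 to 88.7 CPM in the control group and 105 to 149 CPM in the HG group, nearly all of it CD68, and its part in the results for the VEGF genes was not tested.

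**Figure D2:**
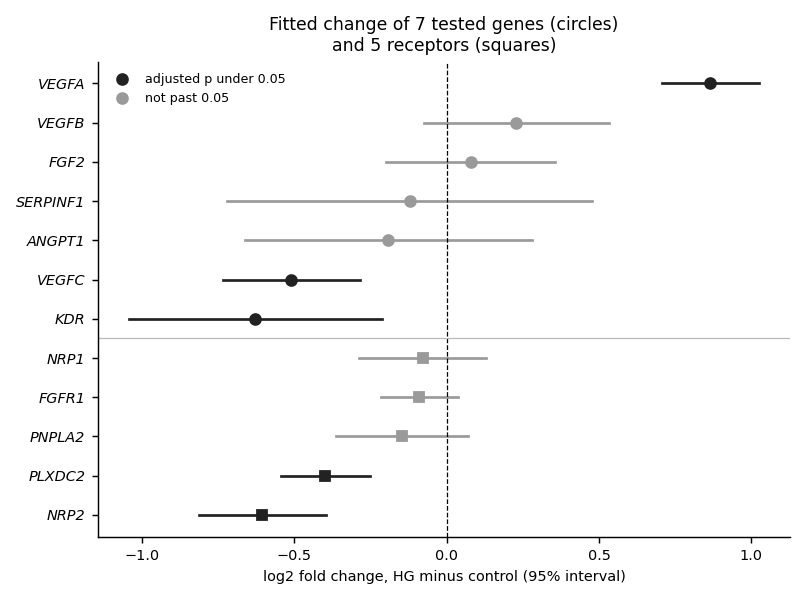
Fitted log2 fold change, HG minus control (horizontal axis), with its 95% interval for the 7 tested genes (circles) and 5 receptors (squares), from edgeR with n = 5 per group. Black marks an adjusted p under 0.05, which VEGFA passes to the right of 0 and VEGFC, KDR, PLXDC2 and NRP2 pass to the left.

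Angiopoietin 1 keeps vessels stable through the receptor TIE2, and angiopoietin 2 opposes it. ANGPT1 (ENSG00000154188, chr8:107249482-107498055, minus strand) had 2.15, 1.23, 2.24, 2.39 and 1.48 CPM in control replicates 1 to 5 and 1.87, 1.31, 1.81, 1.61 and 1.70 CPM in HG_1 to HG_5. The groups overlapped throughout, and the difference did not pass the test (log2 fold change -0.19, 95% interval -0.66 to 0.28, adjusted p = 0.624, edgeR). The log2 fold change was -0.09 without control replicate 4, -0.31 without control replicate 2 and -0.36 without both GC-tilted libraries, and it passed under none of these. ANGPT2 (ENSG00000091879, chr8:6499651-6563409, minus strand) had 5, 6, 9, 6 and 7 counts in the control libraries and 2, 9, 8, 3 and 9 counts in the HG libraries. Its mean log2 CPM differed by -0.15 (exact two-sided permutation test, p = 0.659), between -0.33 without HG_5 and 0.09 without HG_1, and a difference was not detectable at this depth. ANGPT2 shares 78 exon bases with MCPH1 on the opposite strand, which was measured at 9.23 and 8.78 CPM (adjusted p = 0.673, edgeR). TEK, the gene of TIE2, had 0 to 8 counts and TIE1 none. Of the 4 other genes of the axis only PTPRB, a phosphatase that acts on TIE2, was tested, and it did not pass (log2 fold change 0.07, adjusted p = 0.791, edgeR).

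ANGPTL4 (ENSG00000167772, chr19:8363289-8374373, plus strand), an inhibitor of lipoprotein lipase that also promotes vessel leakage, had 5, 0, 6, 0 and 7 counts in the control libraries and 8, 4, 10, 3 and 5 counts in the HG libraries. Both values of 0 were in the control group, but the other counts overlapped. Mean log2 CPM differed by 0.76 (exact two-sided permutation test, p = 0.278), on 18 counts in all control libraries and 30 in all HG libraries. It was 0.46 without control replicate 2 or without control replicate 4, the libraries at 0, and up to 0.97 without control replicate 5. Of 7 relatives of ANGPTL4, 3 were tested and none was called, where 15.4% of all rows were called. Its RefSeq window held 1 hypoxia response element core and 2 GC boxes.

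FGF2 (ENSG00000138685, chr4:122826708-122898236, plus strand), basic fibroblast growth factor, which drives growth of endothelial cells, was the most abundant of the 10 genes in mean CPM. It was measured at 510, 352, 442, 475 and 490.0 CPM in control replicates 1 to 5 and at 354, 516, 467, 532 and 528 CPM in HG_1 to HG_5. The lowest library of each group was again the GC-tilted one, control replicate 2 and HG_1, the reverse of VEGFB, and the longest coding transcript of FGF2 is 37.5% GC. The groups overlapped and the difference did not pass the test (454 ± 62.2 against 479 ± 74.7 CPM, log2 fold change 0.08, 95% interval -0.20 to 0.36, adjusted p = 0.750, edgeR). After the GC and length correction FGF2 lay at 425 to 470 CPM in the control group and at 451 to 492 CPM in the HG group, and it was still not called (log2 fold change 0.08, adjusted p = 0.185, edgeR). Without control replicate 2 alone the log2 fold change was 0.0017, and without HG_1 alone it was 0.17. FGF2 shares 804 exon bases with NUDT6 on the opposite strand, and NUDT6, at 1.87 and 2.10 CPM, did not change past the threshold (adjusted p = 0.738, edgeR).

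Of 11 other genes of the FGF axis 8 were tested, 1 was called higher and 2 lower, where 15.4% of all rows were called. FGFBP3, which releases FGF2 from the matrix, rose from 1.23 ± 0.238 to 2.39 ± 0.511 CPM (log2 fold change 0.96, adjusted p = 0.0102, edgeR). FGF1, acidic fibroblast growth factor, fell by 0.49 and FGFRL1, a receptor without a kinase domain, fell by 0.31 on the log2 scale (adjusted p = 0.00253 and 0.0189, edgeR). FGFR1, the main receptor of FGF2, averaged 85.1 ± 6.59 and 79.9 ± 2.79 CPM (log2 fold change -0.09, adjusted p = 0.353, edgeR).

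**Figure D3:**
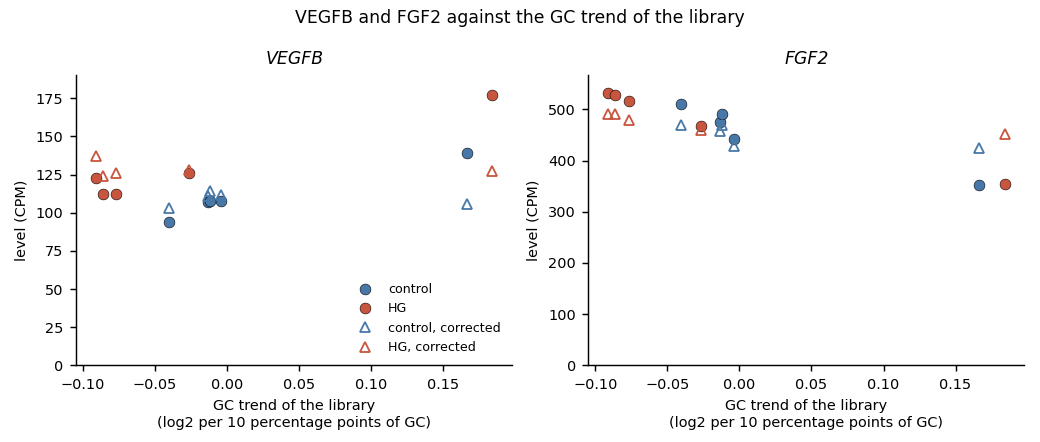
Level of VEGFB (left) and FGF2 (right) in CPM against the GC trend of each library (log2 per 10 percentage points of GC), as measured (filled circles) and after correction for GC content and length (open triangles), 1 point of each kind per library. HG_1 and control replicate 2, at the right of each panel, are the highest libraries of their groups for VEGFB and the lowest for FGF2 before correction, and corrected VEGFB levels do not overlap between groups.

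SERPINF1 (ENSG00000132386, chr17:1761959-1777574, plus strand), the gene of PEDF and the inhibitor among the 10 genes, was barely expressed in this line. It was measured at 0.788, 0.987, 0.553, 0.878 and 0.921 CPM in control replicates 1 to 5 and at 0.442, 1.04, 0.580, 0.851 and 0.882 CPM in HG_1 to HG_5. The groups overlapped over nearly their whole range, and HG_1, on 17 counts, was the lowest library. The difference did not pass the test (0.825 ± 0.168 against 0.759 ± 0.243 CPM, log2 fold change -0.12, adjusted p = 0.826, edgeR), and its 95% interval, from -0.72 to 0.48, leaves room for a change of either sign. The sign turned without HG_1 (log2 fold change 0.02) and without both GC-tilted libraries (log2 fold change 0.10). The log2 fold change was -0.265 without HG_2 and -0.24 without control replicate 3. Of 5 candidate PEDF receptors 4 were tested and 1 was called, where 15.4% of all rows were. PLXDC2 fell from 160 ± 12.1 to 122 ± 8.88 CPM (log2 fold change -0.40, adjusted p = 0.00260, edgeR), PNPLA2, a triglyceride lipase, averaged 188 ± 18.6 and 170 ± 24.8 CPM (log2 fold change -0.15, adjusted p = 0.380, edgeR), and PLXDC1 had 0 to 6 counts. PNPLA2 was called lower without HG_1 and control replicate 2 (log2 fold change -0.17, adjusted p = 0.00927, edgeR) and after the GC correction (log2 fold change -0.11, adjusted p = 0.0457, edgeR).

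The ratio of VEGFA to SERPINF1 within a library, which does not depend on library scaling, was higher in every HG library than in every control library. In counts it was 64.4, 46.5, 84.4, 52.9 and 53.3 in control replicates 1 to 5 and 183, 93.4, 164, 101 and 86.2 in HG_1 to HG_5. The narrowest gap lay between control replicate 3, at 84.4, and HG_5, at 86.2, and the highest ratios, in HG_1 and HG_3, came with the lowest SERPINF1 counts of the HG group, 17 and 26. On the log2 scale the ratio averaged 5.88 ± 0.334 in the control group and 6.90 ± 0.498 in the HG group, a difference of 1.02, of which the VEGFA change of 0.87 is the larger part. No p is given, since the numerator is the gene already tested above. From deposited FPKM the difference was 1.01, also without overlap.

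VEGFA relative to VEGFC did not overlap between the groups either. This was fixed in advance, because VEGFA rose and VEGFC fell, each without overlap, so the ratio adds no result of its own. The ratio of counts was 2.05 to 2.54 in the control group and 4.73 to 6.88 in the HG group, with log2 means of 1.22 ± 0.148 and 2.59 ± 0.225. VEGFA relative to VEGFB averaged -1.21 ± 0.255 and -0.57 ± 0.345 on the log2 scale, and the groups overlapped through HG_1, at 0.456 counts of VEGFA per count of VEGFB. The ratios of FGF2, VEGFB and VEGFC to SERPINF1 overlapped between the groups.

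**Figure D4:**
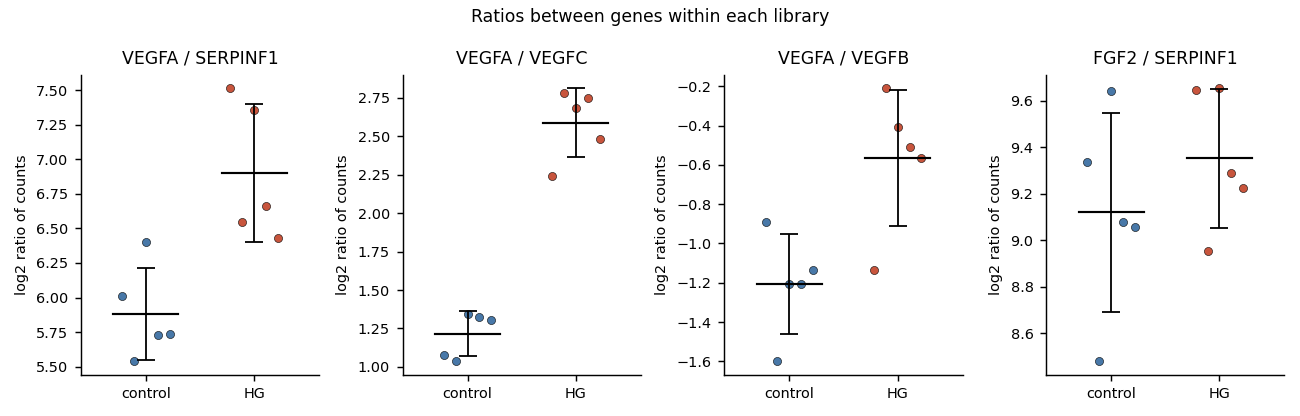
Log2 ratio of counts between pairs of genes within each library (vertical axes, which do not start at 0), with 1 point per library, the mean as a line and the SD as error bars (n = 5 per group). VEGFA to SERPINF1 and VEGFA to VEGFC do not overlap between groups, and VEGFA to VEGFB and FGF2 to SERPINF1 do.

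Among angiogenic factors outside the 10 genes, most of those that changed fell, on both sides of the balance. The lists were chosen with earlier results of these data known, so their counts are no test of an excess. Of 32 other pro-angiogenic factors 25 were tested, 1 was called higher and 12 were called lower, where 7.62% of all rows were higher and 7.8% lower. The median log2 fold change of the list was -0.22, and that of all rows tested was 0.0013. EDN1, the vasoconstrictor endothelin 1, fell from 10.8 ± 2.37 to 3.96 ± 0.704 CPM (log2 fold change -1.45, adjusted p = 3.66e-04, edgeR). CCN2, connective tissue growth factor, and CCL2, a monocyte chemoattractant, fell by 1.29 and 1.10 on the log2 scale (adjusted p = 6.97e-05 and 7.31e-04, edgeR), and TGFA, a ligand of the EGF receptor, rose by 0.47 (adjusted p = 0.00568, edgeR). Of 23 other anti-angiogenic factors 15 were tested, 1 was called higher and 6 were called lower, against the same shares of all rows, with a median of -0.15.

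Among these inhibitors THBS1, thrombospondin 1, fell from 1128 ± 339 to 371 ± 65.0 CPM (log2 fold change -1.61, adjusted p = 4.46e-04, edgeR). TIMP3, a matrix-bound metalloproteinase inhibitor that blocks binding of VEGF to VEGFR2, fell from 609 ± 75.3 to 256 ± 15.8 CPM (log2 fold change -1.25, adjusted p = 1.95e-05, edgeR). SPARC, a matrix protein that binds VEGF, fell by 0.62 on the log2 scale (adjusted p = 6.97e-05, edgeR), and SEMA3F, a semaphorin that signals through NRP2, rose by 0.94 (adjusted p = 0.0187, edgeR). Without the 2 GC-tilted libraries the pro-angiogenic list had 4 called higher and 13 lower and the anti-angiogenic list 1 higher and 7 lower, where 13.3% of all rows were called higher and 13.8% lower.

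Of 24 known regulators of VEGFA and ANGPTL4, all tested, 2 were called higher and 2 lower, a share near the 15.4% of all rows. HIF1A, the oxygen-regulated subunit of HIF-1, averaged 885 ± 154 CPM in the control group and 685 ± 118 CPM in the HG group (log2 fold change -0.37, adjusted p = 0.118, edgeR). It was called lower after the GC correction (log2 fold change -0.40, adjusted p = 0.00202, edgeR) and without HG_1 and control replicate 2 (log2 fold change -0.36, adjusted p = 0.010, edgeR). EPAS1, which encodes HIF-2 alpha, rose from 154 ± 10.3 to 201 ± 13.3 CPM (log2 fold change 0.39, adjusted p = 0.00183, edgeR). ATF4, a stress-response factor, rose from 284 ± 23.7 to 373 ± 37.4 CPM (log2 fold change 0.40, adjusted p = 0.00584, edgeR). SMAD3, a transducer of TGF-beta signals, and STAT3 fell by 0.24 and 0.16 on the log2 scale (adjusted p = 0.00206 and 0.0499, edgeR).

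Of 15 other target genes of HIF, all tested, 8 were called higher and 1 lower, where 7.62% of all rows were higher and 7.8% lower, with a median log2 fold change of 0.34. The list was chosen with earlier results of these data known, so this count is no test of an excess. CA9, carbonic anhydrase 9, rose from 8.92 ± 1.84 to 18.7 ± 3.96 CPM (log2 fold change 1.07, adjusted p = 0.00265, edgeR). BNIP3, a mitophagy receptor, and LDHA, lactate dehydrogenase A, rose by 0.58 and 0.52 on the log2 scale (adjusted p = 0.00113 and 0.0139, edgeR). SLC2A1, the glucose transporter GLUT1, fell from 916 ± 49.2 to 586 ± 42.0 CPM (log2 fold change -0.64, adjusted p = 9.80e-05, edgeR). PDK1, PGK1, ALDOA, DDIT4 and NDRG1, the remaining genes that rose, are enzymes of glycolysis or its control and stress-response genes, and EGLN3, P4HA1, P4HA2, KDM3A, ANKRD37 and ENO1 did not pass the test. Without HG_1 and control replicate 2 this list had 9 called higher and 1 lower, in the same fit with 13.3% and 13.8% of all rows.

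**Figure D5:**
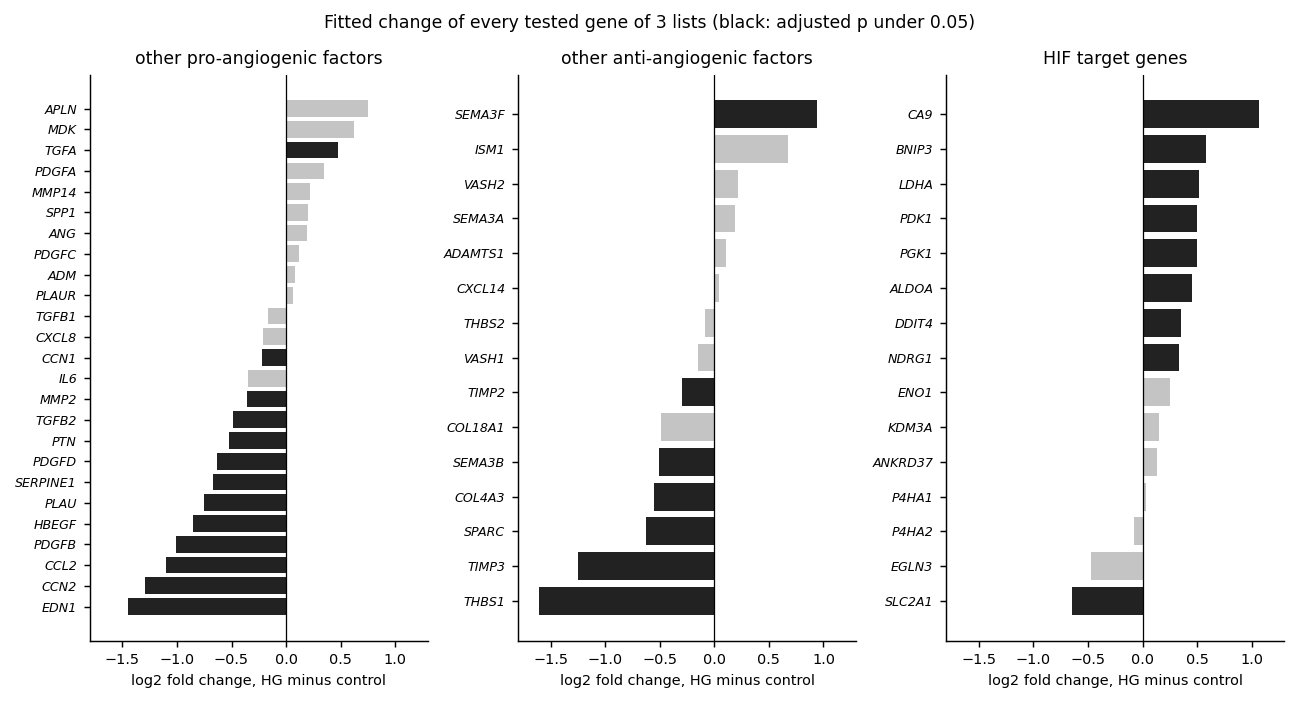
Fitted log2 fold change, HG minus control (horizontal axis), of every tested gene among other pro-angiogenic factors (25 genes), other anti-angiogenic factors (15 genes) and HIF target genes (15 genes), with bars from 0 and black for an adjusted p under 0.05. Called genes lie mostly to the left in the first 2 lists and, apart from SLC2A1, to the right in the third.

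Over the 10 libraries the pattern of VEGFA was most like that of CTH, HMGN4 and BTG2, with Pearson r of log2 CPM of 0.994, 0.989 and 0.985 among 9647 genes with a mean of at least 10 CPM. CTH, an enzyme of cysteine synthesis, rose from 7.61 to 15.6 CPM (log2 fold change 1.04, adjusted p = 1.22e-04, edgeR), and HMGN4, a chromatin protein, and BTG2, an antiproliferative factor, rose by 0.44 and 0.43 on the log2 scale (adjusted p = 1.88e-04 and 3.81e-04, edgeR). The points fall into the control and HG groups, so these r values mostly restate a difference between groups. The genes most like SERPINF1 were RNF170, NOL11 and STIL (r = 0.866, 0.830 and 0.821), and none of them passed the test (adjusted p = 0.658, 0.961 and 0.676, edgeR).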

How the data were processed

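The authors deposited read counts per gene, whole numbers without normalization, and FPKM values, scaled by the authors to transcript length and library size, for 10 libraries. The submitters' processing notes name fastp 0.20.1, HISAT2 2.2.1 and GRCh38, while the counting program, annotation and use of strand are not given in the sources used here. Counts of 14936 of the 22626 rows passed the default low-count filter of edgeR 4.0.16 (R 4.3.3) and were fitted with TMM scaling and the quasi-likelihood test, Benjamini-Hochberg adjusted over all of them and called under 0.05. The paper names no tool for this comparison. CPM are counts relative to the TMM-scaled library size. For ANGPT2, ANGPTL4 and PGF an exact permutation test of log2 CPM, with a prior count of 2, was used.

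FPKM served to compare levels between genes. Coordinates and overlaps came from GENCODE release 29 (GRCh38) and promoter windows from RefSeq. The GC and length correction (lowess, span 0.3) covered 13538 rows, 90.6% of those tested. Depth was 32448991 to 45864176 counts, floors of 3 counts cover counting error only, and the 95% intervals of fold changes come from the edgeR fit and include the spread between libraries. All pairs of libraries of a group differed by far more than sampling noise, at 13.8 to 78.5 chi-square units per gene. Alternatives were other scalings, filters, DESeq2 1.42.0, limma 3.58.1 on log2(FPKM + 1) and log2(FPKM + 0.1), the correction, and libraries left out. Scripts were tested on simulated data. The named genes were the 10 genes, their receptors, HIF subunits, overlapping genes, TXNIP, the 3 genes most like VEGFA and SERPINF1, and of each list at most the 3 largest changes in each direction with adjusted p under 0.05 and a mean of at least 1 CPM. Other markers and list genes that were named (among them NOTCH3, BEST1, PTPRB, PDK1 and ENO1) were chosen after their values were seen. The 10 genes and the lists were chosen with earlier results of these data known, so the shares of all rows are a reference and no test of a list.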

Additional observations from a re-analysis of the deposited data

Results flagged for a closer look

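VEGFB in HG_1 was 177.3 CPM, against 112.6 to 126.1 CPM in the other 4 HG libraries, a gap of 0.792 of the range of the group where the limit for 5 libraries is 0.71. PGF in control replicate 5 was 0.0674 CPM, that is 3 counts, against 0 in the other 4 control libraries. Chance flags about 1 in 20 groups of continuous values, so 1.1 of the 22 groups checked, and 2 were found. With 4 libraries at 0, any count in the other library is flagged, so this rate does not cover the PGF flag. The 2 found cannot be set against the 1.1.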

How the results depend on the processing

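VEGFA and VEGFC kept direction and call in all 10 fits that left out 1 library (log2 fold change 0.82 to 0.91 and -0.57 to -0.45) and in all 10 other settings (0.81 to 0.95 and -0.55 to -0.44). KDR kept its direction but missed the threshold with library size alone (log2 fold change -0.61), without a filter on low counts (-0.62), with limma on log2(FPKM + 1) (-0.19) and log2(FPKM + 0.1) (-0.51), without control replicate 2 and HG_1 together (-0.58) and in 9 of 10 fits without 1 library (-0.70 to -0.52), at adjusted p of 0.0506 to 0.110, and passed it without control replicate 3 (-0.72). KDR also passed with RLE scaling (-0.63), with DESeq2 (-0.63), with at least 10 counts in every library (-0.63) and after the GC and length correction (-0.62). The cause of these shifts was not tested. VEGFB passed the threshold without both GC-tilted libraries (0.19) and after the GC and length correction (0.23). Rows called in the whole table numbered 2303, against 4035 (27.1%) and 3781 (27.9%) under those settings, and 1648 to 2993 with 1 library left out. Of the 10 genes, 2 to 4 were called throughout. ANGPT1, FGF2 and SERPINF1 were called under none of 9 or 10 other settings, nor ANGPT2 under 2 and ANGPTL4 under 1, the others giving no value for these genes, and none of the 5 was called with 1 library left out. The difference in log2 ratio of VEGFA to SERPINF1 was 0.78 without both libraries, 1.14 after the correction and 0.87 to 1.15 with 1 library left out. The settings of the list counts were chosen after seeing the data. No paired analysis was possible because the labels number the control samples and letter the HG samples, so they share no replicate numbers, and no label ties the column numbers of the HG libraries to samples. Depth limited PGF, ANGPT2, ANGPTL4 and SERPINF1.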
